A study of Mus musculus with 9 samples.

Results

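Most proteins described here belong to the contractile and calcium apparatus of fast skeletal muscle, and their transcripts were measured in mouse heart ventricle. The exception is Ckm, a creatine kinase that heart and skeletal muscle share. The group holds 8 genes of the 8251 with a single symbol on the array, control probe sets left out: Myl1, Casq1, Ckm, Tnnt3, Tnni2, Atp2a1, Pvalb and Actn3. They were chosen by name as skeletal muscle isoforms and selected on how they moved with the activity of phosphoinositide 3-kinase (PI3K) in these same arrays. Their differences between groups are therefore given as a description, and the calls of the fit for them are counted once, beside the share over all probe sets, and support nothing. Every probe set that the platform annotation pairs with 1 of these symbols was taken, which gave 12 probe sets, with 2 each for Ckm, Atp2a1, Pvalb and Actn3. For Myl1 and Casq1 every caPI3K array lay above every NTG array and every dnPI3K array below, and on each probe set of the other 6 genes the caPI3K and NTG arrays overlapped.

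Ventricles of 9 mice were profiled, 1 oligonucleotide array per animal. Mice of the caPI3K group (n = 3) carried a transgene for a constitutively active PI3K, mice of the dnPI3K group (n = 3) one for dominant negative PI3K, and NTG mice (n = 3) carried no transgene and served as controls for both. According to the labels, caPI3K hearts were 20% larger and dnPI3K hearts 17% smaller than the hearts of wild type littermates. The promoter and cell type that drive the transgenes, and the strain, sex and age of the animals, are not given in the sources used here. Values are intensities after quantile normalization of the 9 deposited arrays, and differences are on the log2 scale with a floor at the 20th percentile, an intensity of 35.34. A probe set entered the fit if it lay above this floor on at least 3 arrays, which 10645 probe sets did. The errors of differences are standard errors (SE) of limma, and those of means are standard deviations (SD).

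Skeletal muscle fibres come in fast and slow types, and each type builds its sarcomere from its own myosins, light chains and troponins. The adult mouse ventricle uses a further set, with cardiac troponins, ventricular light chains, the pump encoded by Atp2a2 and the calsequestrin encoded by Casq2. Transcripts of fast isoforms are known in heart at low levels, and Myl1 is also transcribed in the developing heart. PI3K phosphorylates a membrane lipid to which the kinase Akt binds, and through Akt insulin and related growth factors enlarge muscle cells and keep FoxO transcription factors out of the nucleus.

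Of the 8 genes, 5 have a start site in the promoter table taken from RefSeq on assembly GRCm38.p6: Myl1, Casq1, Ckm, Atp2a1 and Pvalb. The 250 bases before the start are shown for Myl1 and Casq1, whose transcripts followed the 3 groups in the same order, and for Ckm, whose transcript did not. Each runs 5′ to 3′ and ends at the base before the start. Capitals mark matches, on either strand, to the E-box (CANNTG), which myogenic factors such as MyoD bind, and to the MCAT element (CATTCC), which TEAD factors bind.
Myl1, chr1:66945057-66945306 (minus strand): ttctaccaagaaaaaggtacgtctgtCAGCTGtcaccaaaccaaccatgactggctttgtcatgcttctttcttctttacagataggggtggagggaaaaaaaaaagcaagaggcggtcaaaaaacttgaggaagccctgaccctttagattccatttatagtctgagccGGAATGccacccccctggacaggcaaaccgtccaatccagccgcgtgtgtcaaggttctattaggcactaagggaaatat
Casq1, chr1:172219896-172220145 (minus strand): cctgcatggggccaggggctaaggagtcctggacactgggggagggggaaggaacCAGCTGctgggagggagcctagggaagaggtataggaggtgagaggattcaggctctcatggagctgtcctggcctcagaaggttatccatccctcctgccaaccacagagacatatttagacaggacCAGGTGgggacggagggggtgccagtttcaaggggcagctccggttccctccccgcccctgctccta
Ckm, chr7:19410844-19411093 (plus strand): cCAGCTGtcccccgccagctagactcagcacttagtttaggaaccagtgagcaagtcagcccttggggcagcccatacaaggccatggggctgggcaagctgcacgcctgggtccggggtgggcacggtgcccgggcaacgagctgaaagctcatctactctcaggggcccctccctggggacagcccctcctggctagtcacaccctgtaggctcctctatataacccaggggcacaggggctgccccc

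Myl1 held the E-box CAGCTG at 224 to 219 bases before the start and an MCAT match, read as GGAATG on this strand, at 80 to 75 bases. Casq1 held CAGCTG at 195 to 190 bases and a second E-box, CAGGTG, at 67 to 62 bases. The E-box with the GC centre, CAGCTG, was singled out after these matches were seen, and it is a subset of CANNTG. Ckm held it at 249 to 244 bases and Atp2a1 at 55 to 50 bases. Pvalb has 2 starts in the table. The window before one of them matched a MEF2 site at 180 to 171 bases, and the window before the other held the E-box CATGTG at 111 to 106 bases. No window of the 5 genes matched the FoxO site (GTAAACA) or a CArG box, and the other genes had no match to a MEF2 site.

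E-boxes are common. Among 32851 mouse promoter windows of the same length, 66.2% held an E-box, 13.0% held CAGCTG, 12.6% an MCAT element, 3.17% the FoxO site, 2.92% a MEF2 site and 1.47% a CArG box. The matches describe the sequence and not binding.

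Myl1 encodes the essential light chain of fast skeletal myosin, which braces the lever arm of the motor. Its probe set (92541_at) read 9234, 13606 and 9917 in the 3 caPI3K ventricles, 1349, 1011 and 1132 in the 3 dnPI3K ventricles, and 6977, 4689.7 and 3158 in the 3 NTG ventricles. All caPI3K arrays lay above all NTG arrays, and all dnPI3K arrays lay below them. The mean was 10919 ± 2350 in caPI3K, 1164 ± 171 in dnPI3K and 4942 ± 1920 in NTG (SD, n = 3 each). The log2 difference was 1.20 ± 0.249 (SE) for caPI3K against NTG, a 2.29-fold higher level, and -2.02 ± 0.249 for dnPI3K against NTG, a 4.06-fold lower level. Between caPI3K and dnPI3K it was 3.22 ± 0.249, or 9.31-fold. By absolute size this difference ranked 5 among the 10645 probe sets tested, and that of dnPI3K against NTG ranked 21. NTG replicate 1, the highest of its group, still lay below every caPI3K array. The probe set does not separate the transcripts that the gene can make.

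Casq1 encodes calsequestrin of skeletal muscle, the protein that buffers calcium inside the sarcoplasmic reticulum. Its probe set (102426_at) read 3560.1, 5909 and 5428 in caPI3K ventricles, 981, 651 and 683 in dnPI3K ventricles, and 2153, 3117 and 2983 in NTG ventricles. The 3 groups again did not overlap, and their order was that of Myl1. The mean was 4966 ± 1240 in caPI3K, 772 ± 182 in dnPI3K and 2751 ± 522 in NTG (SD, n = 3 each). Against NTG, Casq1 differed on the log2 scale by 0.84 ± 0.219 in caPI3K (1.79-fold higher) and by -1.84 ± 0.219 in dnPI3K (3.58-fold lower). Its difference between caPI3K and dnPI3K was 2.68 ± 0.219, or 6.40-fold. This ranked 14 among all probe sets tested by absolute size.

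Across the 9 arrays the log2 values of Myl1 and Casq1 had a Pearson correlation of 0.944. That value carries the group differences for which the genes were selected. After the group mean was taken from each gene, the correlation of what remained was 0.046 over the same 9 arrays. The ventricle with most Myl1 among the NTG animals had the least Casq1 of that group.

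**Figure D1:**
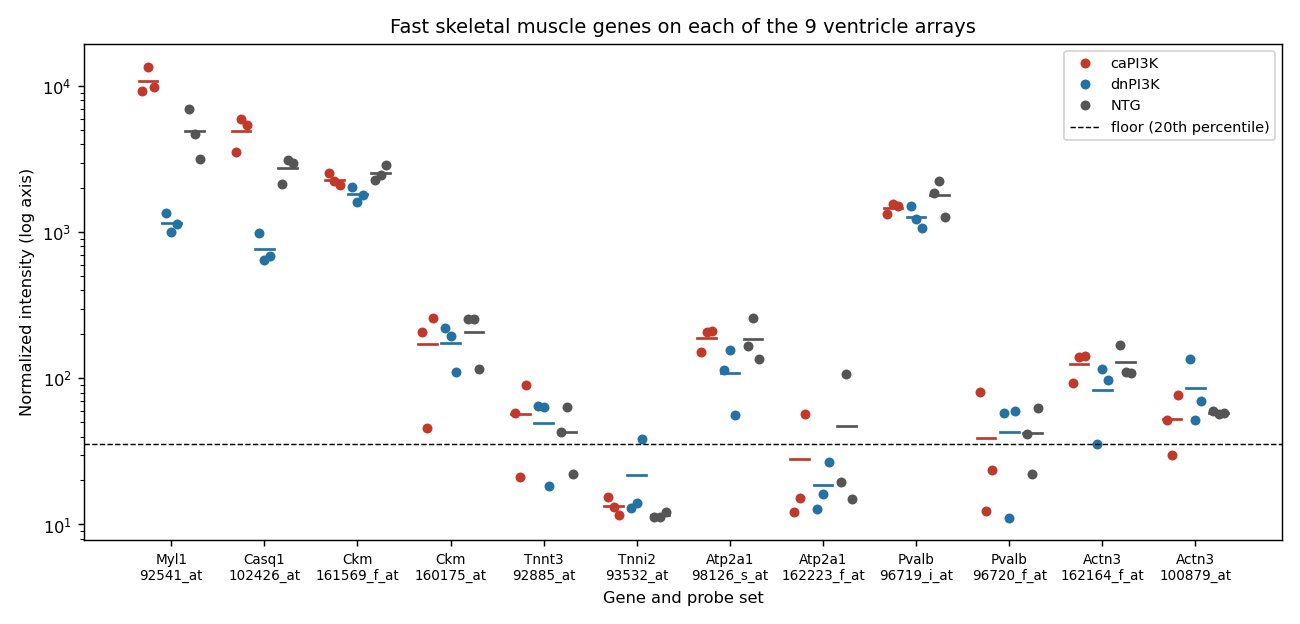
Normalized intensity (log axis) of the 12 probe sets of the 8 genes on each of the 9 arrays. Points are single ventricles in the order caPI3K, dnPI3K and NTG, short bars are group means, and the dashed line is the floor at 35.34. Myl1 and Casq1 form 3 separate groups of points, while the points of the other 10 probe sets lie near each other or near the floor.

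Ckm encodes muscle creatine kinase, which passes phosphate between ATP and creatine in heart and skeletal muscle alike. Its brighter probe set (161569_f_at) read 2528.5, 2232 and 2118 in caPI3K, 2027, 1605 and 1809 in dnPI3K, and 2267, 2477 and 2883 in NTG. The dnPI3K arrays lay below those of both other groups, and the caPI3K arrays overlapped with NTG. The log2 difference from NTG was -0.15 ± 0.122 in caPI3K and -0.49 ± 0.122 in dnPI3K, and that between caPI3K and dnPI3K was 0.34 ± 0.122. Its dimmer probe set (160175_at) read 208, 45.5 and 258 in caPI3K, 222, 194 and 111 in dnPI3K, and 253.5, 255 and 115.5 in NTG. It overlapped in every comparison. The log2 difference of caPI3K against NTG was -0.54 on this probe set and 0.24 without caPI3K replicate 2, the array that read 45.5. The letter f in a probe set name marks sequence shared within a gene family, so these 2 probe sets need not measure the same transcripts.

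Atp2a1 encodes SERCA1, the calcium pump of fast fibres. Its probe set 98126_s_at, which shares sequence with other transcripts, read 152, 208 and 210.1 in caPI3K, 113, 156 and 56.3 in dnPI3K, and 168, 257 and 136 in NTG. The means were 189.9 in caPI3K, 108.7 in dnPI3K and 187.2 in NTG, the order of Myl1, but all 3 groups overlapped, and dnPI3K replicate 3 was the lowest array. The log2 difference from NTG was 0.06 ± 0.395 in caPI3K and -0.85 ± 0.395 in dnPI3K, and that between caPI3K and dnPI3K was 0.91 ± 0.395. Without dnPI3K replicate 3 dnPI3K differed from NTG by -0.44 and caPI3K from dnPI3K by 0.49. The other probe set (162223_f_at) was above the floor on 2 of 9 arrays, caPI3K replicate 3 at 56.7 and NTG replicate 2 at 107, and was not tested.

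Actn3 encodes the alpha-actinin that anchors actin at the Z-disc of fast fibres. Its 2 probe sets had differences of opposite sign. The log2 difference of dnPI3K against NTG was -0.79 ± 0.440 on 162164_f_at and 0.44 ± 0.394 on 100879_at. On 162164_f_at the arrays read 92.7, 139.7 and 143 in caPI3K, 35.6, 116 and 97.1 in dnPI3K, and 169.8, 111 and 109 in NTG. The low dnPI3K value came from replicate 1, and without that array the difference was -0.26. With the floor at the 40th percentile the difference was -0.18. On 100879_at the arrays read 51.5, 29.9 and 76.5 in caPI3K, 136, 52 and 70.1 in dnPI3K, and 60.1, 56.9 and 58.1 in NTG. The highest of these was the same dnPI3K replicate 1 that was lowest on the other probe set.

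Pvalb encodes parvalbumin, the cytosolic calcium buffer that speeds relaxation of fast fibres. Its brighter probe set (96719_i_at) read 1343, 1551 and 1515 in caPI3K, 1514, 1234 and 1074 in dnPI3K, and 1851, 2251 and 1265.5 in NTG. All groups overlapped, and the log2 differences were -0.25 ± 0.194 for caPI3K against NTG and -0.46 ± 0.194 for dnPI3K against NTG. The letter i marks a probe set with fewer probes than the design required. The other one (96720_f_at) was above the floor on 5 of 9 arrays and differed by 0.04 ± 0.388 and 0.14 ± 0.388 in the same comparisons.

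Tnnt3 and Tnni2 encode fast troponin T, which holds the troponin complex on tropomyosin, and fast troponin I, its inhibitory subunit. Tnnt3 (92885_at) read 58.2, 21.3 and 90.4 in caPI3K, 65, 64 and 18.4 in dnPI3K, and 42.8, 63.8 and 22.2 in NTG. Each group had 1 array below the floor, and the log2 differences were 0.32 ± 0.401 for caPI3K against NTG and 0.20 ± 0.401 for dnPI3K against NTG. Tnni2 (93532_at) read 11.6 to 15.5 in caPI3K, 12.9 to 38.4 in dnPI3K and 11.3 to 12.2 in NTG. It was above the floor on 1 array, dnPI3K replicate 3, and was not tested.

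Of the 12 probe sets, 10 passed the filter on low intensity and represent 7 genes. In the fit over all probe sets, 0 of the 10 passed an adjusted p of 0.05 in caPI3K against NTG, where 0.0845% of all probe sets tested did. In dnPI3K against NTG, 2 of the 10 passed as lower, beside 2.18% of all probe sets in either direction, and in caPI3K against dnPI3K 2 of the 10 passed as higher, beside 3.24%. They were Myl1 and Casq1 in each case, and these counts repeat the contrasts on which the genes were selected. The order with every caPI3K array above every NTG array and every NTG array above every dnPI3K array held for 2 of the 10 and for 57 of the 10645 probe sets (0.535%). The median log2 difference of the 10 from NTG was 0.00 in caPI3K and -0.48 in dnPI3K, and their median between caPI3K and dnPI3K was 0.28. Over all probe sets tested these medians were -0.001, 0.003 and 0.

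**Figure D2:**
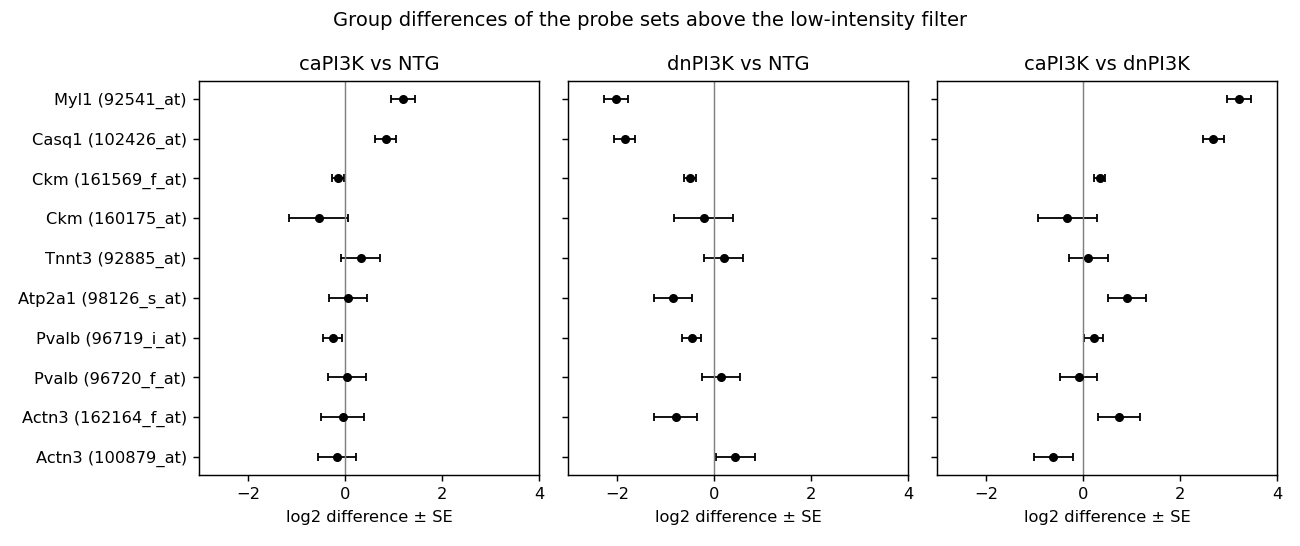
Log2 difference between groups (horizontal axis, point ± SE) for the 10 probe sets above the filter, in 3 panels. Myl1 and Casq1 lie at 1.20 and 0.84 in caPI3K against NTG and at -2.02 and -1.84 in dnPI3K against NTG, and the other 8 lie between -0.85 and 0.44 in these 2 panels.

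**Figure D3:**
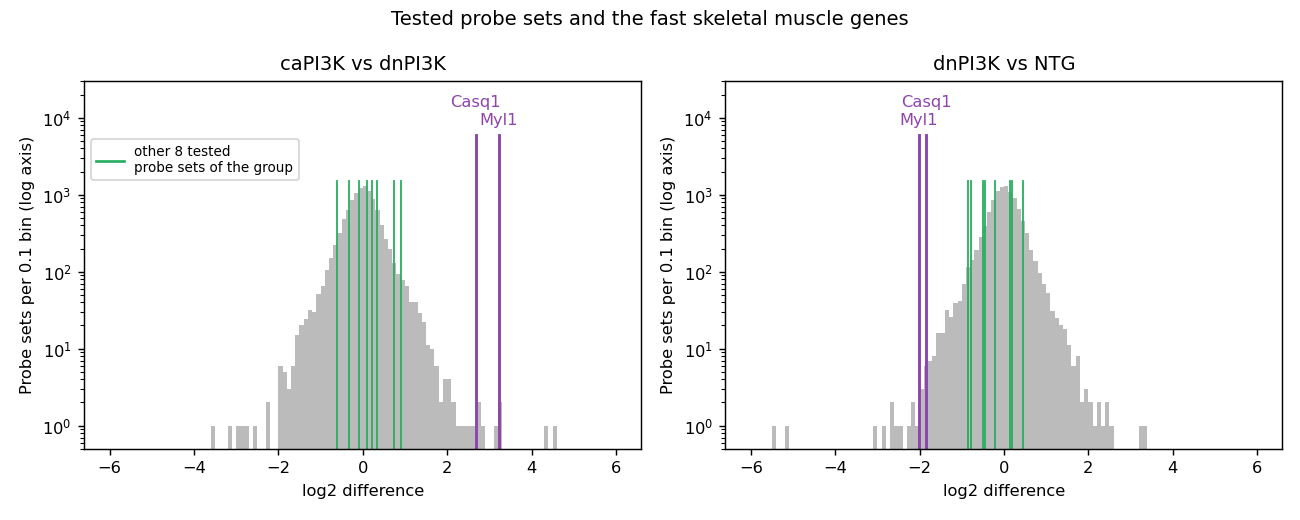
Histogram of log2 differences of the 10645 probe sets tested (grey, log axis of probe sets per bin of 0.1), for caPI3K against dnPI3K and dnPI3K against NTG. Tall lines mark Myl1 and Casq1, in the outer tails, and short lines mark the other 8 probe sets, which lie between -0.85 and 0.91.

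The animal numbers in the sample titles allow a comparison of caPI3K with NTG within a series of numbers. In the animals numbered from 2800, with 2 arrays per group, Myl1 differed by 0.97 and Casq1 by 0.82 on the log2 scale. In those numbered from 3100, with 1 array per group, the differences were 1.65 and 0.86. The brighter Ckm probe set differed by 0.00 and -0.45, and the 7 remaining probe sets had opposite signs in the 2 series. The dnPI3K animals have numbers from 1200 and 1400, where there is no NTG animal, so the dnPI3K transgene and the animal series cannot be told apart.

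The dnPI3K arrays also stood apart in control probe sets. Spike-in controls of bacteria and phage had a geometric mean of 3023 ± 272 on caPI3K arrays, 1790 ± 212 on dnPI3K arrays and 2988 ± 369 on NTG arrays (SD, n = 3 each). The control for the 3′ end of 18S ribosomal RNA read 476 to 545 on caPI3K arrays, 3265 to 8567 on dnPI3K arrays and 450.5 to 671 on NTG arrays. The part of these shifts in the lower Myl1 and Casq1 of dnPI3K ventricles was not tested. Array medians of the deposited values lay between 174.8 and 193.9, and the number of arrays, 3 per group, limits the precision of every difference. Of 10 markers of ventricular muscle 9 were on the array and 0 of them lay below the floor on all arrays, with summed intensities of 250274 to 257386 in caPI3K, 257035 to 269284 in dnPI3K and 247311 to 271966 in NTG. Among these 9, 0 changed in caPI3K against NTG (0 also at an unadjusted p under 0.05 in limma). Mybpc3, the cardiac myosin-binding protein, rose by 0.46 in dnPI3K against NTG (adjusted p = 0.0336) and was lower in caPI3K than in dnPI3K by a log2 difference of -0.49 (adjusted p = 0.0164), and on the deposited values without quantile normalization these differences were 0.12 and -0.10 and did not pass. Nppb, which encodes a natriuretic peptide, was also lower in caPI3K than in dnPI3K, with a difference of -0.63 (adjusted p = 0.0428). The Nppb call was kept in 6 of 17 alternative settings (adjusted p of 0.023 to 0.149). Among fits with 1 array left out, it was lost without any 1 caPI3K or dnPI3K replicate or NTG replicate 2.

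The heart has its own counterpart for most proteins of the group, and these were set beside the fast isoforms. The ventricular light chain genes Myl3 and Myl2 read near the top of the array in all groups, with log2 differences of -0.01 ± 0.0908 and -0.02 ± 0.0830 for caPI3K against NTG and -0.09 ± 0.0908 and -0.12 ± 0.0830 for dnPI3K against NTG. Quantile normalization holds such bright probe sets close together. Cardiac calsequestrin, Casq2, read 886, 937 and 677 in caPI3K, 934, 467 and 573 in dnPI3K, and 601.5, 829 and 864 in NTG. The 3 groups of Casq2 overlapped, and its log2 differences were 0.13 ± 0.247 for caPI3K against NTG and -0.26 ± 0.247 for dnPI3K against NTG (limma adjusted p = 0.953 and 0.692). The NTG mean was 2751 for Casq1 and 765 for Casq2, but intensities of different probe sets do not rank their transcripts by amount.

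Cardiac troponin T (Tnnt2) and troponin I (Tnni3) differed by -0.06 and -0.07 in caPI3K against NTG and by 0.05 and 0.08 in dnPI3K against NTG. Their slow skeletal relatives Tnnt1 and Tnni1 differed by 0.09 and -0.56 in caPI3K and by 0.15 and 0.38 in dnPI3K. The cardiac calcium pump gene Atp2a2 was at -0.12 ± 0.107 in each comparison with NTG. Actn2, an alpha-actinin that heart uses, was at -0.11 ± 0.220 in caPI3K and -0.83 ± 0.220 in dnPI3K (adjusted p = 0.0914). Brain creatine kinase, Ckb, was at 0.48 ± 0.370 and -0.26 ± 0.370. None of these genes passed the test.

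Among 11 heart counterparts tested, 0 changed in caPI3K against NTG (0 also at an unadjusted p under 0.05 in limma), and Ckmt2 and Myl4 fell in dnPI3K against NTG. Ckmt2, the creatine kinase of muscle mitochondria, read 13794, 16399.8 and 17019 in dnPI3K ventricles, against 20877, 22680.2 and 21229.9 in NTG ventricles. The groups did not overlap, and the log2 difference was -0.46 ± 0.0925 (limma adjusted p = 0.0336). In the same comparison the brighter Ckm probe set was at -0.49 ± 0.122 and the dimmer at -0.21 ± 0.605. The call for Ckmt2 was kept in 6 of 17 alternative settings, with adjusted p-values of 0.00918 to 0.172. It was lost with arrays scaled to the same median, without the filter, without the intensity trend and with only the 2 groups fitted. It was also lost without any 1 of the caPI3K replicates, dnPI3K replicates 1 or 2 or NTG replicates 1 or 2. Its second tested probe set differed by -0.59 ± 0.174 (adjusted p = 0.126). Between caPI3K and dnPI3K, Ckmt2 was higher in caPI3K by 0.42 (adjusted p = 0.0364). That call was kept in 10 of 17 alternative settings, with adjusted p-values of 0.0111 to 0.176. It was lost without the filter, without the intensity trend, and without any 1 caPI3K replicate or dnPI3K replicates 1 or 2.

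**Figure D4:**
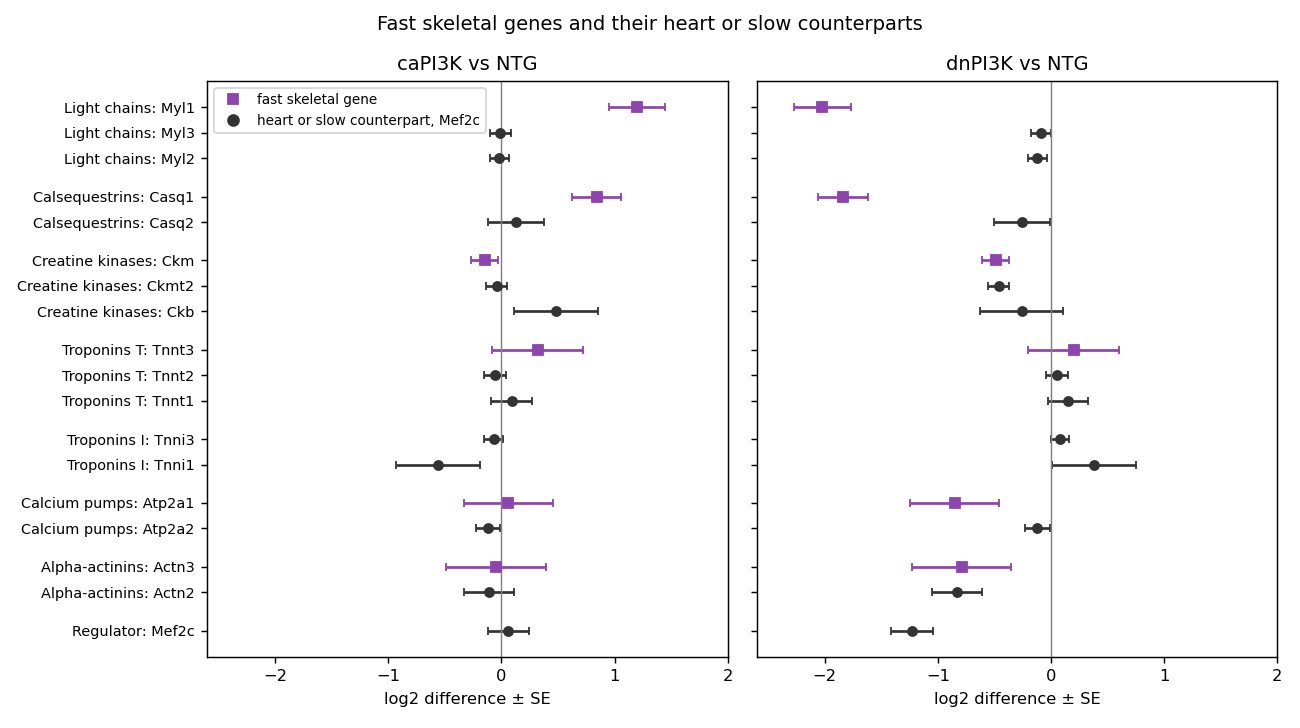
Log2 difference against NTG (point ± SE) of the fast skeletal genes (squares) and of their heart or slow counterparts and Mef2c (circles), brightest probe set per gene, for caPI3K and dnPI3K. Myl1 and Casq1 lie away from 0 in both panels, while Myl3, Myl2 and Casq2 lie between -0.26 and 0.13. Other circles lie further from 0, such as Mef2c (-1.23), Actn2 (-0.83) and Ckmt2 (-0.46) in dnPI3K and Tnni1 (-0.56) in caPI3K. The heart counterpart Myl4, at -5.48 in dnPI3K, is not drawn. Fast troponin I has no square because its probe set was below the filter. Ckm is drawn as a square with its group, although heart uses it too.

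Myl4, the essential light chain of the atrium and a relative of Myl1, varied between animals of a group. Its brighter probe set (160487_at) read 499, 421 and 4304 in caPI3K, 27.9, 49.7 and 36.1 in dnPI3K, and 6896, 3669 and 223 in NTG. In dnPI3K ventricles it fell by 5.48 on the log2 scale relative to NTG (adjusted p = 0.04), a size that depends on the floor because 1 dnPI3K array lay below it. The Myl4 call was kept in 6 of 17 alternative settings (adjusted p of 0.00368 to 0.157). Among fits with 1 array left out, it was lost without any 1 dnPI3K replicate, NTG replicates 1 or 2 or caPI3K replicates 1 or 2. The dimmer Myl4 probe set fell by 1.73 on this scale, with an adjusted p of 0.0144. The atrial regulatory light chain Myl7 had the same arrays high, with 653, 525 and 5579 in caPI3K, 36.5, 142 and 42.2 in dnPI3K, and 7253, 4702.5 and 315 in NTG. It fell by 5.19 in dnPI3K against NTG (adjusted p = 0.0476), a call kept in 5 of 17 alternative settings (adjusted p of 0.00833 to 0.182). Its losses among fits with 1 array left out were those of Myl4, without any 1 dnPI3K replicate, NTG replicates 1 or 2 or caPI3K replicates 1 or 2. The summed intensity of 6 atrial markers spanned 2659.5 to 14078 in caPI3K, 9048 to 11749.9 in dnPI3K and 2376 to 21968 in NTG. None of the 6 was below the floor on all arrays. In dnPI3K against NTG, 2 of the 6 fell (Myl4 and Myl7) and 0 rose. Nppa, an atrial natriuretic peptide gene that stressed ventricles also use, was not low in dnPI3K. It read 1694.5, 1450.0 and 3526.8 in caPI3K, 11230.6, 8414.0 and 9192.5 in dnPI3K, and 6840.4, 3743.6 and 1552.9 in NTG, so that its dnPI3K arrays were the highest. Its log2 difference was 1.48 in dnPI3K against NTG (adjusted p = 0.148) and -2.22 in caPI3K against dnPI3K (adjusted p = 0.0282), the 1 atrial marker that passed there. This call was kept in 10 of 17 alternative settings, with adjusted p-values of 0.00503 to 0.126. Among fits with 1 array left out, it was lost without caPI3K replicates 1 or 2 or any 1 dnPI3K replicate. Sarcolipin, Sln, was at 0.74 in dnPI3K against NTG (adjusted p = 0.456).

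The light chains of the fast and the atrial type can be read against each other by animal. In NTG replicates 1, 2 and 3 Myl4 read 6896, 3669 and 223, and Myl1 read 6977, 4690 and 3158. In caPI3K replicates 1, 2 and 3 Myl4 read 499, 421 and 4304, and Myl1 read 9234, 13606 and 9917. The dnPI3K ventricles were lowest in both. Among NTG ventricles the array with most Myl4 had the least Casq1. The part of atrial tissue in the Myl1 and Casq1 differences was not tested in any comparison.

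**Figure D5:**
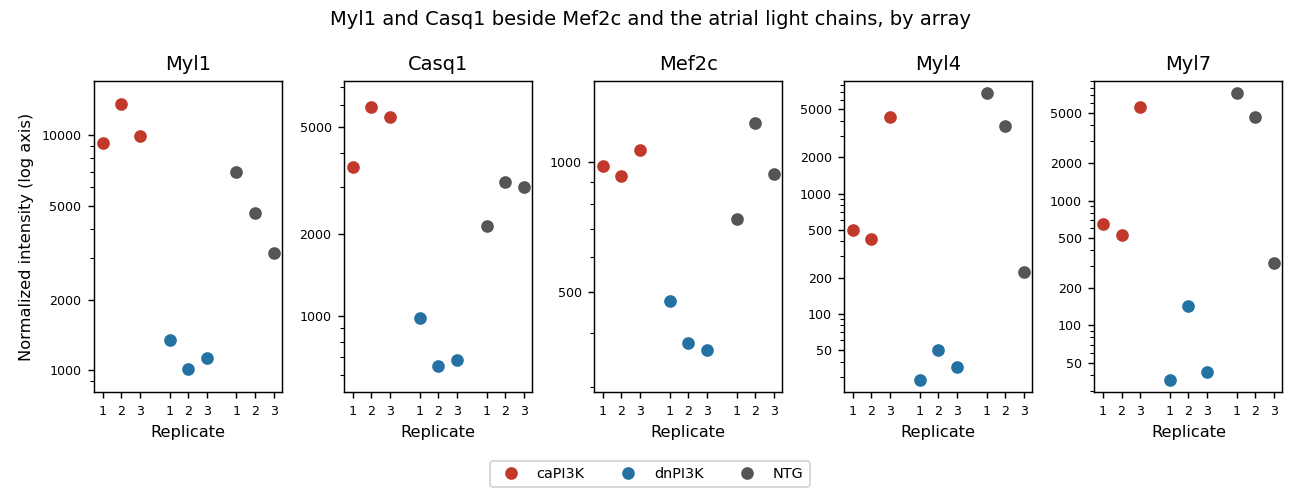
Normalized intensity (log axes that differ between panels) of Myl1, Casq1, Mef2c, Myl4 and Myl7 on each array, in the order caPI3K, dnPI3K and NTG, with replicate numbers below. The dnPI3K ventricles are lowest in every panel, and Myl4 and Myl7 are high in the same 3 arrays, caPI3K replicate 3 and NTG replicates 1 and 2.

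Other genes of fast fibres were read on the same arrays. Of 11 further contractile genes of fast fibres, 7 were on the array and 5 passed the filter. Of these 5, 0 changed in caPI3K against NTG, dnPI3K against NTG or caPI3K against dnPI3K, and all 5 log2 differences were below 0 in both comparisons with NTG. At an unadjusted p under 0.05 in limma there was 1, in caPI3K against NTG. The 5 were the fast myosin heavy chain Myh4 (-0.30 in caPI3K and -0.31 in dnPI3K), the fast regulatory light chain Mylpf (-0.41 and -0.31), fast troponin C, Tnnc2 (-0.39 and -0.54), the myosin-binding protein Mybph (-0.46 and -0.18) and the Z-disc protein Myoz1 (-1.0 and -0.49). Myh4, Mylpf and Tnnc2 each have a second, dimmer probe set, which did not pass the filter. The probe sets of the fast myosins Myh1 and Myh2 read at most 13.7 and lay below the floor on all 9 arrays.

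Of 13 genes that define skeletal muscle, 12 were on the array, and Myh1, Myh2 and Myf5 were below the floor on all arrays. The summed intensity of the 12 was 1627 to 1868 in caPI3K ventricles, 1636 to 1866 in dnPI3K ventricles and 1854 to 2108 in NTG ventricles. The caPI3K ventricles had the lowest sum on 1 of their arrays and overlapped with both other groups. The sum takes the brightest probe set of each gene. The second probe sets of Myh4, Mylpf and Tnnc2 were above the floor on 1, 0 and 1 of the 9 arrays. What the sum measures of these genes is therefore uncertain. Among the 9 that passed the filter 0 changed in any comparison, and myostatin (Mstn), which restrains muscle growth, had a log2 difference of 1.37 for caPI3K against NTG (adjusted p = 0.493) and of 1.43 for caPI3K against dnPI3K (adjusted p = 0.107). At an unadjusted p under 0.05 in limma there were 1 of the 9 in caPI3K against NTG, 0 in dnPI3K against NTG and 2 in caPI3K against dnPI3K. In whole ventricle, fewer cells that make a transcript and less of it per cell cannot be told apart.

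Excitation and contraction in skeletal muscle are coupled by the calcium channel of the T-tubule and the release channel beneath it. Of 10 such genes, 5 were measured, and Cacna2d1, the alpha2delta subunit of the channel, which heart also uses, was higher in caPI3K than in dnPI3K. It read 413, 578 and 480.5 in caPI3K ventricles, against 203, 242 and 211 in dnPI3K ventricles, with a log2 difference of 1.16 ± 0.223 (adjusted p = 0.0191). The NTG ventricles read 366, 514 and 303.5, and the difference of dnPI3K from them was -0.82 ± 0.223 (adjusted p = 0.0984). The call between caPI3K and dnPI3K was kept in 11 of 17 alternative settings, with adjusted p-values of 0.00899 to 0.0966. It was lost without the filter, and without caPI3K replicates 2 or 3 or any 1 dnPI3K replicate. The skeletal channel subunit gene Cacna1s (-0.53) and the release channel gene Ryr1 (0.00) did not pass in the same comparison.

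Of 12 measured genes of glycogen use, glycolysis and adenylate metabolism in skeletal muscle, 0 changed in any comparison (at an unadjusted p under 0.05 in limma there were 2 for caPI3K and 1 for dnPI3K against NTG, and 4 between caPI3K and dnPI3K), and their median log2 difference was 0.03 for caPI3K against NTG and -0.01 for dnPI3K against NTG. The nearest to the threshold was the muscle phosphoglycerate mutase gene Pgam2 in caPI3K against dnPI3K, at 0.31 ± 0.0878 (adjusted p = 0.0906).

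Among 8 measured genes of calcium handling in the heart, Hrc fell in dnPI3K. Hrc encodes the histidine-rich calcium-binding protein, which shares the lumen of the sarcoplasmic reticulum with calsequestrin. It read 4711, 5011 and 4782 in dnPI3K ventricles, against 7413, 7215 and 7582 in NTG ventricles. The log2 difference was -0.61 ± 0.0746 (adjusted p = 0.00308), and the call was kept in 16 of 17 alternative settings, the exception being the fit without the intensity trend (adjusted p = 0.0552). In caPI3K it read 6613, 6840.4 and 6179.5, a log2 difference of -0.18 ± 0.0746 from NTG (adjusted p = 0.691) and of 0.44 ± 0.0746 from dnPI3K (adjusted p = 0.0113). The call against dnPI3K was kept in 15 of 17 settings and lost without caPI3K replicate 2 (adjusted p = 0.0636) and without the intensity trend (adjusted p = 0.121). Like Casq1, Hrc was lower in dnPI3K than in NTG on every array, and in caPI3K every Hrc value lay below the NTG values where every Casq1 value lay above them.

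Of 16 measured regulators of muscle genes, Mef2c changed. It encodes a MADS-box factor that works with myogenic factors in skeletal muscle and with Gata and Hand factors in heart. Its brightest probe set (104590_at) read 979, 927 and 1064 in caPI3K, 474, 379 and 365 in dnPI3K, and 739, 1233 and 937 in NTG. It fell in dnPI3K against NTG by 1.23 on the log2 scale (SE 0.183, adjusted p = 0.00752) and was higher in caPI3K than in dnPI3K by 1.29 ± 0.183 (adjusted p = 0.00403). Both calls were kept in all 17 alternative settings run for them, with adjusted p-values of 0.00464 to 0.0442 and 0.00226 to 0.0287. The caPI3K arrays lay among the NTG arrays, with a difference of 0.06 ± 0.183 (adjusted p = 0.969).

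Other Mef2c probe sets divided. The probe set 104592_i_at fell by 1.62 in dnPI3K against NTG (adjusted p = 0.0228), 104591_g_at was at -1.13 (adjusted p = 0.0811), and 97357_at was at 0.08 (adjusted p = 0.894). The related factors Mef2a (-0.22) and Mef2d (0.04) did not pass in dnPI3K against NTG. The myogenic factors Myod1, Myog and Myf6 did not pass in either comparison with NTG, with differences of -0.27, 0.09 and -0.42 in caPI3K and of -0.08, 0.22 and -0.53 in dnPI3K. Tead1, which encodes a factor that binds the MCAT element, was at 1.64 ± 0.378 in caPI3K and 1.40 in dnPI3K against NTG on its brighter probe set (adjusted p = 0.287 and 0.0974) and at 0.42 and 0.34 on the other.

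A further list joined skeletal alpha-actin, Acta1, to genes of embryonic muscle and the neuromuscular junction. Of its 5 measured genes, Acta1 rose in caPI3K. It read 21229.9, 20877 and 17243 in caPI3K ventricles, against 9968, 8036 and 8008 in NTG ventricles (log2 difference 1.19 ± 0.155, adjusted p = 0.0255). In dnPI3K it read 10378, 6769 and 7972, a difference of -0.07 ± 0.155 from NTG (adjusted p = 0.894). Acta1 was higher in caPI3K than in dnPI3K by 1.26 ± 0.155 (adjusted p = 0.00164), a call kept in all 17 alternative settings. The slow myosin gene Myh7, among 4 measured slow counterparts, rose by 1.03 ± 0.134 in caPI3K (adjusted p = 0.0255) and by 1.42 ± 0.134 in dnPI3K (adjusted p = 0.000574). On the dimmer Myh7 probe set (161547_f_at) caPI3K differed from NTG by 0.66 without passing (adjusted p = 0.814), dnPI3K had an adjusted p of 0.0443 with a higher level, and both probe sets may share sequence within the myosin family. On the brighter probe sets, the calls against NTG in caPI3K were kept in 10 of 18 alternative settings for Acta1 and in 8 of 18 for Myh7. Both were lost without the filter or the intensity trend. Among fits with 1 array left out, both were lost without caPI3K replicates 2 or 3, dnPI3K replicate 3 or NTG replicates 2 or 3. Acta1 was further lost without caPI3K replicate 1 and Myh7 without dnPI3K replicate 2, with adjusted p-values up to 0.191.

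Over the 92 listed muscle genes outside the group, 72 were on the array and 66 passed the filter. In caPI3K against NTG 2 rose (Myh7 and Acta1) and 0 fell, which is 3.03% of those tested, beside 0.0845% of all probe sets. In dnPI3K against NTG 1 rose (Myh7) and 4 fell (Myl4, Ckmt2, Mef2c and Hrc), or 7.58% beside 2.18%, and in caPI3K against dnPI3K 5 were higher (Cacna2d1, Ckmt2, Acta1, Mef2c and Hrc) and 0 lower, or 7.58% beside 3.24%. The lists were chosen with earlier results of these arrays known, so these shares support nothing about the lists. The median log2 difference of the 66 was -0.01, -0.13 and 0.11 in these comparisons. These limma p-values weigh each difference against the spread between animals within groups of 3, pooled over the 9 arrays and moderated. In comparisons with dnPI3K they cannot separate the transgene from the animal series.

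Genes outside the group also had profiles close to those of Myl1 and Casq1. Likeness was the Pearson correlation of log2 values over the 9 arrays with 7471 other genes, and since all such profiles share the group order and the same arrays it is a description. The 5 genes most like Myl1 were Adig (r = 0.979), which encodes adipogenin of fat cells, Foxh1 (0.976), the phospholipase gene Pla2g5 (0.975), the proteasome activator gene Psme4 (0.973) and the membrane protein gene Emp1 (0.973). Those most like Casq1 were Psme4 (0.990), the peroxisome gene Pex11a (0.984), the M-band gene Myom1 (0.983), the growth factor gene Hbegf (0.977) and the copper pump gene Atp7a (0.976). Correlations above 0.9 were reached by 49 genes for Myl1 and 54 for Casq1. Of 7 fat cell markers 5 were measured and 0 changed in any comparison (1 at an unadjusted p under 0.05 in limma), with summed intensities of 1879 to 2403 in caPI3K, 1818.5 to 1946 in dnPI3K and 2041 to 2616 in NTG. Adipoq varied within groups, at 129, 103.5 and 358 in caPI3K, 101, 174 and 141 in dnPI3K, and 683, 206 and 112 in NTG. Its 3 highest arrays were those high in Myl4, which was not so for Lep, Fabp4, Cidea or Ucp1. The part of fat tissue in these profiles was not tested.

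Psme4, the gene on both lists, read 2883, 3432.5 and 3416 in caPI3K, 1499, 1329 and 1435 in dnPI3K, and 2364, 2619.8 and 2319 in NTG. Its groups did not overlap, in the order of Casq1, with log2 differences of 0.41 for caPI3K against NTG and -0.78 for dnPI3K against NTG. Myom1, which encodes a sarcomere protein of heart and skeletal muscle, had the smallest span of the 5 like Casq1, with differences of 0.10 and -0.31.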

How the data were processed

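RNA of 9 mouse ventricles was measured on 1-colour oligonucleotide arrays. The deposited table gives linear intensities of 12488 probe sets on each array. The authors' steps before these intensities are not given in the sources used here. On every array the deposited intensities have the same mean after removal of the lowest and highest 2% (500.4), so they had been scaled. The photomultiplier was set to 10%, per the labels.

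The deposited intensities were quantile normalized between arrays. Values under the 20th percentile were set to it, log2 was taken, and 66 control probe sets were left out. Probe sets above the floor on at least 3 arrays were fitted with limma 3.58.1 under R 4.3.3, using eBayes with its intensity trend. The fit held all 9 arrays, had group as the sole covariate and left 6 residual degrees of freedom. P-values are two-sided, adjusted by the Benjamini-Hochberg method over the 10645 probe sets tested, with a threshold of 0.05. The procedure was run on simulated arrays with independent errors and no effect of array or animal series. That run therefore cannot show how such effects bear on the calls. Replicates are numbered by deposition, and the numbers do not pair animals.

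The members and the gene lists were chosen with earlier results of these data known. A gene of a list is represented by its brightest probe set. Named are all members with every probe set, their heart and slow counterparts, genes past the threshold in the other lists with up to 3 of smallest p, and the 5 genes most like Myl1 and Casq1. Myl2, Ryr1, Cacna1s, Sln and further probe sets were named after their values were seen. Gene symbols come from the platform annotation, and promoter sequences from RefSeq (GRCm38.p6). The array files name no genome build. Alternatives were other scalings, floors and filters, no intensity trend, a fit of the 2 groups compared, the animal series as a block and each array left out in turn.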

Additional observations from a re-analysis of the deposited data

How the results depend on the processing

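Myl1 and Casq1 kept the direction of their differences in all 18 alternatives run for caPI3K against NTG and all 17 for the other comparisons. Each difference moved by less than the residual SD of limma for that probe set. This outcome was largely fixed. Both genes lie far above the floor, so other floors and filters, no trend or the fit of 2 groups leave their differences unchanged. The block does too, since each series holds as many caPI3K as NTG arrays. Their groups do not overlap, so leaving out 1 array cannot reverse a sign. With 1 array left out, Myl1 differed by 0.91 to 1.48 in caPI3K against NTG, by -2.31 to -1.74 in dnPI3K against NTG and by 3.04 to 3.34 in caPI3K against dnPI3K, and Casq1 by 0.67 to 1.06, -2.03 to -1.73 and 2.53 to 2.90. Counts of probe sets past the threshold depended more on the settings. For caPI3K against NTG the count was 9, and it was 1 without the filter, without the intensity trend, with only the 2 groups fitted or with the animal series as a block. With 1 array left out it was 0 (when NTG replicate 2 or 3, caPI3K replicate 2 or dnPI3K replicate 3 was left out) to 20 (without NTG replicate 1), beside 734 probe sets at an unadjusted p under 0.05 in limma. For dnPI3K against NTG it was 232, and 138 without the filter, 94 without the trend, 107 with only the 2 groups, and 82 (without dnPI3K replicate 2) to 235 (without NTG replicate 3) with 1 array left out. For caPI3K against dnPI3K it was 345, and 219 without the filter, 151 without the trend, and 134 (without dnPI3K replicate 2) to 435 (without NTG replicate 3) with 1 array left out. Of the listed muscle genes, 5 passed in caPI3K against dnPI3K, with 8 on the deposited values, with every probe set or with probe sets above the median, 3 without the trend, and 2 to 7 with 1 array left out. In caPI3K against NTG 2 passed, with 1 under the block or only the 2 groups, 0 without the filter or the trend, and 0 to 3 with 1 array left out. In dnPI3K against NTG 5 passed, with 8 over every probe set, 3 without the filter or with only the 2 groups, 2 without the trend, and 3 to 5 with 1 array left out. The causes of these shifts were not tested. The same settings were applied to marker genes of the ventricle and of other cell types, a choice made after seeing the data. With arrays scaled to a common median, calls numbered 135 higher and 93 lower in dnPI3K against NTG (108 and 124 as reported) and 9 and 4 in caPI3K against NTG (5 and 4), while the median of all probe sets moved by less than 0.04. No paired analysis was possible because the replicate numbers only name animals in order of deposition, while the animal series, which holds both groups, served as the block for caPI3K against NTG. Dim probe sets, such as those of Tnnt3 and Tnni2, lie near the floor, which limits what the arrays show about these genes.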

Other observations

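Of 6 smooth muscle markers, Acta2 and Myh11 ran opposite to Myl1 and Casq1 between caPI3K and dnPI3K. Acta2, the actin of vascular smooth muscle, rose in dnPI3K against NTG by 1.0 on the log2 scale (adjusted p = 0.0176) and was lower in caPI3K than in dnPI3K (log2 difference -1.56, adjusted p = 0.00113). Myh11, the smooth muscle myosin heavy chain, was lower in caPI3K than in dnPI3K (log2 difference -1.20, adjusted p = 0.0334). In dnPI3K against NTG Myh11 did not pass (0.61, limma adjusted p = 0.312). The call for Acta2 was kept in 17 of 17 alternative settings between caPI3K and dnPI3K and in 12 of 17 against NTG (adjusted p up to 0.0793). The latter was lost without the filter, without the intensity trend, and without dnPI3K replicates 1 or 3 or NTG replicate 2. The call for Myh11 was kept in 10 of 17 (adjusted p up to 0.107). Among fits with 1 array left out, it was lost without caPI3K replicates 2 or 3 or any 1 dnPI3K replicate. The summed intensity of 6 smooth muscle markers was 2956 to 3463 in caPI3K ventricles, 4814 to 5846 in dnPI3K ventricles and 3576 to 4122 in NTG ventricles, and the groups did not overlap. Acta2 had the widest span in this sum, with means of 868 in caPI3K, 2555 in dnPI3K and 1271.5 in NTG. Of the 5 that passed the filter, 2 were lower in caPI3K than in dnPI3K and 0 higher. Tagln, Smtn and Mylk did not pass there, with differences of -0.56, -0.07 and -0.02. In dnPI3K against NTG they were at 0.23, 0.24 and -0.21 and did not pass either. The part of cell composition in these values was not tested. Summed intensities of 4 nerve markers were 284 to 327 in caPI3K, 195 to 306 in dnPI3K and 306 to 349.5 in NTG, and those of 3 blood markers were 32743 to 37292, 26241 to 32976 and 25260.2 to 35558. None of the 2 nerve and 3 blood markers above the filter passed the test in any comparison (1 of each at an unadjusted p under 0.05 in limma).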
